A study of Mus musculus with 15 samples.

Results

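Interferon-stimulated genes are genes switched on by interferons, secreted proteins that warn cells of infection and that also act in inflamed tissue without one. The 30 genes described here, induced by type I interferon, type II interferon or both, were taken by symbol from a table of counts per gene in mouse liver. All 30 were among the 15302 genes of the table, and all 30 were among the 12274 that passed the filter on low counts. The 15 mice were wild type, and all of them, controls included, were fed a diet for metabolic dysfunction-associated steatohepatitis (MASH) and kept at about 29°C from 8 weeks of age. MASH is a liver disease of fat storage with inflammation and cell damage. GDF15 animals (5) were injected under the skin with recombinant GDF15, a hormone that suppresses appetite, at 1 nmol/kg once daily. PairFed animals (5) got as much food as GDF15 animals had eaten on the previous day, and Vehicle animals (5) were the controls. The labels used here give neither strain nor sex nor the length of treatment. Nothing in them ties a column of the table to 1 animal, so library numbers follow the table and are names, and p-values measure the spread between these libraries.

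Type I interferons act through the receptor of Ifnar1 and Ifnar2 and the kinases Jak1 and Tyk2. These activate a transcription factor complex that includes Stat2 and Irf9 and binds a DNA element called the interferon-stimulated response element (ISRE). Type II interferon, the product of Ifng in T and natural killer (NK) cells, acts through Ifngr1 and Ifngr2 on genes with a DNA element called the gamma-activated site (GAS). The induced proteins sense or block viral RNA, attack the vacuoles of intracellular microbes, present antigen, or switch the signal off again.

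The promoters of the members were searched for these elements. The choice of the genes did not use the elements directly, but the members were listed as interferon-induced. A high share is therefore not independent of that choice, and neighbouring copies are counted separately. RefSeq windows on GRCm38.p6, from 250 bases before to 50 bases after the transcription start, matched 22 of the 30 symbols. The ISRE was searched as GAAANNGAAA and, on the other strand, as TTTCNNTTTC, and the GAS as TTCNNNGAA, which reads the same on both strands. Overlapping matches were counted. An ISRE match was found in 15 of the 22 genes (68.2%), against 3.99% of the 27025 genes with a window. A GAS match was found in 5 of the 22 (22.7%), against 9.55% of all genes. Of the interferon-inducible GTPases, all 6 with a window (Gbp2, Gbp3, Gbp5, Gbp7, Igtp and Irgm1) held an ISRE match, and 3 of them (Gbp5, Gbp7 and Igtp) also a GAS match. The windows of Irf7, Oasl1, Oasl2, Ifi44, Xaf1 and Cmpk2 held neither word. A match is a run of letters in a window, and its absence says nothing about binding.

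Stretches before the start of 4 genes are printed 5′ to 3′ to show different arrangements, with ISRE and GAS matches in capitals. Gbp2, which fell in GDF15, has 1 ISRE match, from 59 to 50 bases before the start. Gbp5 has an ISRE match far upstream of a GAS match, Igtp has a GAS match just before an ISRE match, and Isg15 has 3 ISRE matches that overlap.
Gbp2, chr3:142620463-142620631, plus strand: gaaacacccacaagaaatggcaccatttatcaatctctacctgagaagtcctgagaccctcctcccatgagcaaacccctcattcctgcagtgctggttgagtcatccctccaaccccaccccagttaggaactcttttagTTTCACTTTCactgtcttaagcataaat
Gbp5, chr3:142496734-142496929, plus strand: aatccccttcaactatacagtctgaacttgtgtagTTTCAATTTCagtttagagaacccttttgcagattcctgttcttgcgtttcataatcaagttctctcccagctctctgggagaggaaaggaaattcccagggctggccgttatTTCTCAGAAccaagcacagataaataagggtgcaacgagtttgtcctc
Igtp, chr11:58199356-58199555, plus strand: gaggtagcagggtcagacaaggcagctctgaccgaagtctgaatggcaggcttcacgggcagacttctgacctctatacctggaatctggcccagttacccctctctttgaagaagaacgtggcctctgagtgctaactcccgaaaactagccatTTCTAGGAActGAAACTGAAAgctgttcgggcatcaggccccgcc
Isg15, chr4:156200819-156201018, minus strand: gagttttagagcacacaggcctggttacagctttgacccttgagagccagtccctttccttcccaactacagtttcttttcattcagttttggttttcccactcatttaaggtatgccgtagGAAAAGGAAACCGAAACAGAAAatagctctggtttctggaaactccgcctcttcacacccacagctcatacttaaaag

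Ifit3 and Ifit3b, neighbouring copies on chromosome 19, hold the same pair of ISRE words, TTTCACTTTC and then TTTCAGTTTC. They begin 156 and 122 bases before the start in Ifit3 and 188 and 154 bases before it in Ifit3b. Laid over each other at that shift of 32 bases, their windows share 201 of 268 bases. Other members also lie in clusters. Gbp5, Gbp7, Gbp3 and Gbp2 follow each other on chromosome 3 between 142496934 and 142638008 (GRCm38.p6), and Ifit2, Ifit3, Ifit3b and Ifit1 on chromosome 19 between 34550550 and 34650009. Rsad2 and Cmpk2 lie 12664 bases apart on chromosome 12. Mx1 and Mx2 lie 73174 bases apart on chromosome 16 and are annotated by RefSeq as transcribed pseudogenes in this reference genome.

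A read from a stretch shared by copies can be given to either gene. In GENCODE M21 transcripts, 61.8% of the 31-base words of Ifit3 occur in Ifit3b, and 54.1% of those of Ifit3b occur in Ifit3. Of the words of Oas1a, 68.7% occur in Oas1g. In the other 27 members at most 15.9% occur in another gene. The split between Ifit3 and Ifit3b, and the level of Oas1a, are therefore uncertain.

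Libraries held 8551557 to 12994187 counts, and Vehicle 4 and PairFed 2 to 5 were deeper than the other 10, across the largest gap in total count. Levels are given as CPM, the count relative to the composition-scaled library total. Albumin (Alb), the main secreted protein of hepatocytes, averaged 68833 CPM in Vehicle, and Clec4f, a marker of resident Kupffer cells, 72.8 CPM.

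Counts of a member in a library ran from 8 to 3601, and totals over all libraries from 350 for Mx1 to 36279 for Iigp1. Per kilobase of the longest coding transcript, the mean level in Vehicle was highest for Iigp1, a GTPase loaded onto pathogen vacuoles, at 78.3 CPM per kilobase. Irgm1, which restrains GTPases of its family, stood at 28.5, Igtp at 20.6 and Stat2 at 19.5 on the same scale. The lowest were Gbp5 at 0.998 and Mx1, a dynamin-like antiviral GTPase, at 0.737. Between the Vehicle libraries the coefficient of variation ran from 5.61% for Rtp4 to 38.6% for Isg15.

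Vehicle 2 stood apart in these genes. It held the highest of the 15 values in 21 of the 30 members and was among the 3 highest in 28. Its mean over the members was 0.38 log2 units above the Vehicle mean, while the other Vehicle libraries lay between -0.17 and -0.01. Isg15, a ubiquitin-like modifier, and Irf7, a factor that amplifies type I interferon production, show it. Isg15 stood at 7.72, 19.0, 8.73, 10.7 and 11.3 CPM in Vehicle 1 to 5, at 12.5, 9.18, 9.55, 9.51 and 10.5 CPM in GDF15 and at 10.7, 12.3, 11.8, 9.75 and 10.6 CPM in PairFed. Irf7 stood at 32.4, 52.6, 38.3, 34.7 and 32.2 CPM in Vehicle, at 35.8, 34.9, 36.9, 32.9 and 43.1 CPM in GDF15 and at 41.9, 34.8, 39.9, 34.5 and 45.8 CPM in PairFed. In both genes the other Vehicle libraries overlap the other groups. Vehicle 2 was at the same time the lowest Vehicle library for summed markers of recruited monocytes and macrophages, at 154 CPM against 209 to 253 CPM. It was the highest of all 15 libraries for summed T and NK cell markers, at 12.5 CPM, where the next library was at 12.4 CPM. It was also the highest for summed markers of plasmacytoid dendritic cells, at 175 CPM against at most 171 CPM, a sum made up mostly of Bst2, itself induced by interferon. For the 30 members as a whole, medians against Vehicle and the counts of negative and of passing members are also given without it. So are members that Vehicle 2 moved by over 1.5 times in GDF15 against Vehicle. Counts at an unadjusted p, and most values for parts of the list and for other genes, are given only with it.

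**Figure D1:**
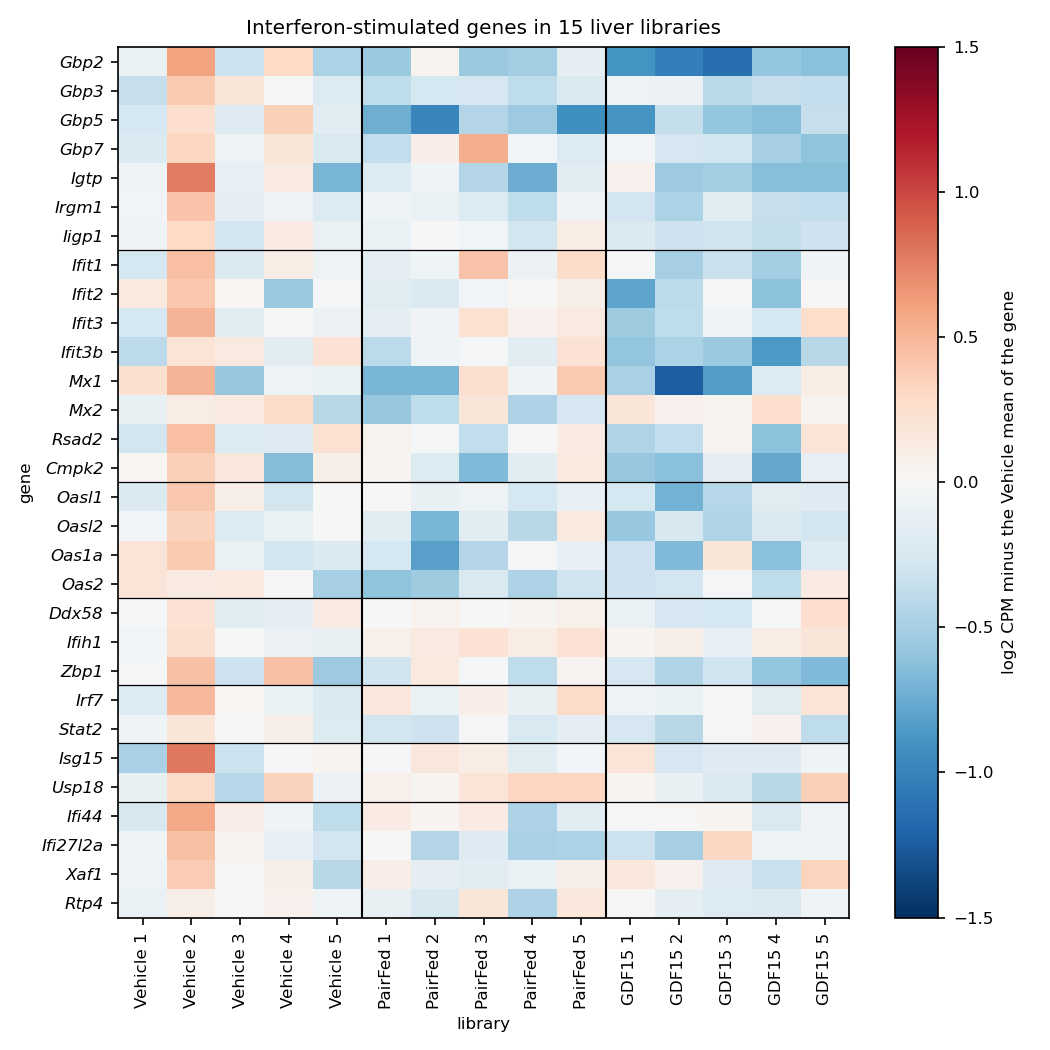
Each cell is the log2 CPM of 1 gene (rows, grouped by role) in 1 library (columns, 5 for each group), minus the mean of that gene over the Vehicle libraries. Vehicle 2 is highest in 21 of the 30 genes. The GTPase rows lie below the Vehicle mean in the GDF15 libraries, except Igtp in GDF15 1, and mostly below it in the PairFed libraries.

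GDF15 against Vehicle takes in everything the hormone did, the smaller food intake included. Gbp2 and Ifit3b fell and no member rose. These 2 of 30 members compare with 0.88% of the 12274 genes that fell and 2.02% that rose, 2.9% in all. DESeq2 called 4 members, where it called 5.23% of all genes, and limma-voom 1, where it called 2.47%; all were lower. At an unadjusted p below 0.05, 12 members (40%) were lower and 0 higher, against 7.54% and 9.12% of all genes. The fold change was negative in 28 members, with a median log2 value of -0.29, and in 51.1% of all genes, with a median of -0.0046. Without Vehicle 2 the members' median was -0.18, 23 were negative and Gbp2 was the 1 that passed. Leaving it out moved 15 of the 30 log2 fold changes by over 1.5 times, 5 of them through 0.

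The interferon-inducible GTPases, which coat and open the vacuoles of intracellular microbes, were negative in 7 of 7, each with an unadjusted p below 0.05. Gbp2 passed the adjusted threshold. Their median was -0.35, and -0.26 without Vehicle 2. The unadjusted p-values rest on fits with that library. Without it all 7 stayed negative and Gbp2 passed, while the adjusted p of Gbp3, Gbp7 and Igtp was 0.469, 0.448 and 0.474. The 23 other members had a median of -0.19, and 5 of them an unadjusted p below 0.05. Mx1, also a GTPase, and Mx2 are counted among these 23, at -0.54 and 0.09. The difference between the sets of 7 and 23 was not tested.

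Gbp2 encodes a guanylate-binding protein that gathers on the membranes of bacteria and parasites. It stood at 14.2, 23.1, 12.1, 18.7 and 10.8 CPM in Vehicle 1 to 5, at 8.05, 7.34, 6.82, 10.1 and 9.77 CPM in GDF15 and at 10.2, 15.7, 10.2, 10.5 and 13.7 CPM in PairFed. Each GDF15 library was below each Vehicle and each PairFed library, while Vehicle and PairFed overlapped. The level was 1.88-fold lower in GDF15 than in Vehicle (log2 fold change -0.91 ± 0.20, SE; adjusted p = 0.0241, edgeR's quasi-likelihood test with Benjamini-Hochberg adjustment). It was -0.73 without Vehicle 2 (adjusted p = 0.0408), and -0.91 with the counts of its relative Gbp2b added (adjusted p = 0.0332). Gbp2 did not pass without Vehicle 4, GDF15 1 or GDF15 2 (adjusted p = 0.0527, 0.0657 and 0.0752), nor among the shallower libraries (adjusted p = 0.0823).

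Ifit3b belongs to a family of proteins that bind foreign RNA or support those that do. It stood at 4.26, 6.54, 6.24, 5.05 and 6.64 CPM in Vehicle, at 3.71, 4.01, 3.80, 3.04 and 4.20 CPM in GDF15 and at 4.29, 5.40, 5.54, 5.07 and 6.60 CPM in PairFed. The highest GDF15 library was just under the lowest library of either other group. The level was 1.53-fold lower in GDF15 than in Vehicle (log2 fold change -0.61 ± 0.16), and the adjusted p of 0.0498 lay at the threshold. Ifit3b passed in 2 of 15 fits that each left out 1 library, those without Vehicle 1 and without PairFed 1, and stood at adjusted p = 0.0943 without Vehicle 2. Its copy Ifit3 ran from 18.01 to 30.9 CPM in Vehicle and 14.8 to 26.1 CPM in GDF15, at -0.19 ± 0.15 (adjusted p = 0.577). With the counts of both added, the log2 fold change was -0.27 (adjusted p = 0.346).

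Gbp5, a guanylate-binding protein that promotes inflammasome assembly, stood at 2.47, 3.62, 2.60, 3.88 and 2.68 CPM in Vehicle, at 1.53, 2.29, 1.95, 1.86 and 2.31 CPM in GDF15 and at 1.73, 1.43, 2.17, 2.00 and 1.49 CPM in PairFed. Each GDF15 and each PairFed library was below each Vehicle library. Its log2 fold change was -0.62 ± 0.21 in GDF15 (adjusted p = 0.116) and -0.80 ± 0.20 in PairFed (adjusted p = 0.0781), both against the same Vehicle libraries.

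Oasl2 is a relative of the synthetases that make 2′-5′ oligoadenylate when they meet double-stranded RNA. It stood at 11.9, 15.6, 10.6, 11.4 and 12.2 CPM in Vehicle, at 8.18, 10.3, 8.87, 10.5 and 10.1 CPM in GDF15 and at 10.8, 7.55, 10.9, 9.13 and 13.5 CPM in PairFed. GDF15 and Vehicle did not overlap, though by a narrow margin, and PairFed overlapped both. The log2 fold change in GDF15 was -0.36 ± 0.14 (adjusted p = 0.206). Gbp2, Ifit3b, Gbp5 and Oasl2 were the 4 of 30 members (13.3%) wholly below Vehicle, against 1.51% of all genes.

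**Figure D2:**
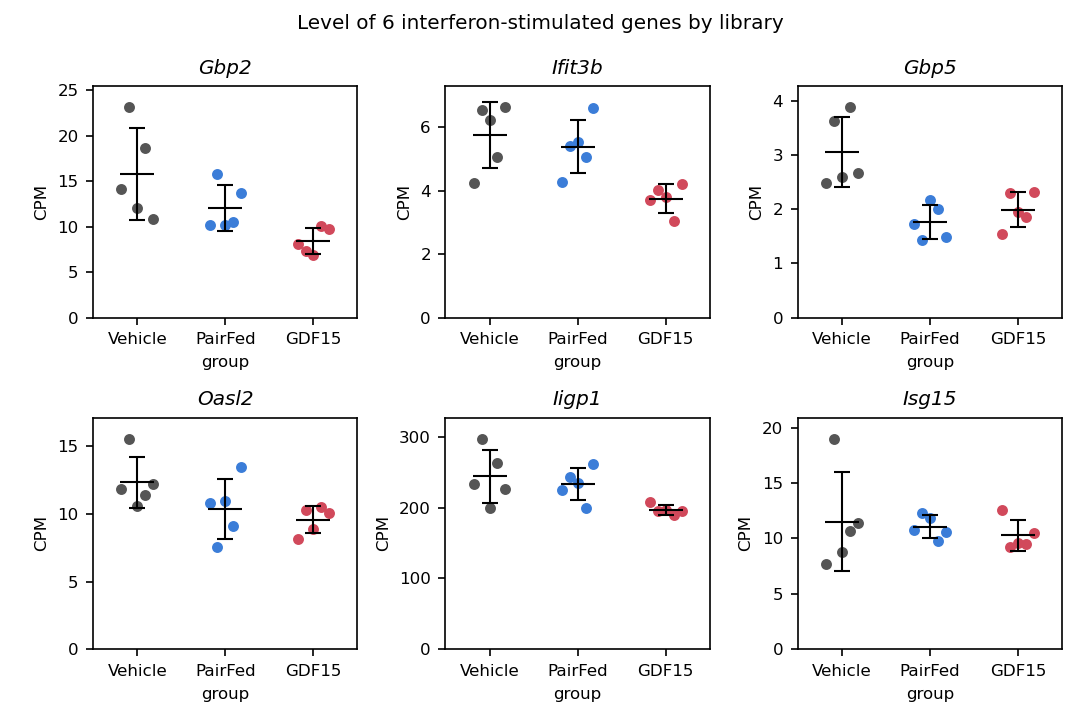
Each point is 1 library, with CPM on the y axis from 0 and the 3 groups on the x axis, and bars give the mean ± SD of 5 libraries. Gbp2, Ifit3b, Gbp5 and Oasl2 lie wholly lower in GDF15 than in Vehicle, while Isg15 overlaps between all groups.

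Iigp1 varied least of the 30 members between the GDF15 libraries, with a coefficient of variation of 3.52%. It stood at 234, 298, 200.3, 264 and 226 CPM in Vehicle, at 208, 196, 197, 189 and 195 CPM in GDF15 and at 226, 244, 235, 200.3 and 263 CPM in PairFed. GDF15 and Vehicle overlapped by a single pair of libraries. Its log2 fold change was -0.31 ± 0.09 (adjusted p = 0.0732, and 0.037 with DESeq2). Irgm1 stood at 55.0 to 85.6 CPM in Vehicle and 45.5 to 56.6 CPM in GDF15, at -0.35 ± 0.10 (adjusted p = 0.0808, and 0.0491 with DESeq2). Igtp, of the same family, stood at 24.4 to 67.2 CPM and 25.3 to 41.1 CPM, at -0.51 ± 0.23 (adjusted p = 0.286). Gbp3 and Gbp7, neighbours of Gbp2, were at -0.28 ± 0.13 and -0.35 ± 0.17 (adjusted p = 0.261 and 0.297). The highest Igtp value was Vehicle 2, and without that library Igtp was at -0.28, Irgm1 at -0.22 and Gbp3 at -0.17.

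Of the 8 antiviral effectors, which act on viral RNA or replication, 7 were negative, with a median of -0.33, and Ifit3b was the 1 that passed. Cmpk2, a mitochondrial nucleotide kinase, was at -0.45 ± 0.19 (adjusted p = 0.233), and its neighbour Rsad2, which makes a chain-terminating nucleotide, at -0.23 ± 0.17 (adjusted p = 0.534). Ifit1 and Ifit2 were at -0.31 ± 0.16 and -0.35 ± 0.17 (adjusted p = 0.346 and 0.332). Mx1 was at -0.54 ± 0.31, with the widest error of the 30, and Mx2 at 0.09 ± 0.17. In the oligoadenylate synthetase family all 4 were negative without passing, with Oasl1 at -0.36 ± 0.12 (adjusted p = 0.127), Oas1a at -0.31 ± 0.19 and Oas2 at -0.18 ± 0.14. Without Vehicle 2, Ifit1 was at -0.18, Ifit3 at -0.04, Rsad2 at -0.10 and Oas1a at -0.20.

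Among the sensors of nucleic acid, Zbp1, which binds Z-form nucleic acid and can start cell death, stood at 9.5005, 13.1, 7.69, 13.1 and 6.53 CPM in Vehicle and at 8.05, 6.997, 7.80, 6.37 and 5.99 CPM in GDF15. The groups overlapped, and the log2 fold change was -0.52 ± 0.18 (adjusted p = 0.141). Ddx58 and Ifih1, the cytosolic RNA sensors also called RIG-I and MDA5, were at -0.07 ± 0.09 and 0.06 ± 0.07. Of the transcription factors, Stat2 was at -0.20 ± 0.09 (adjusted p = 0.308) and Irf7 at -0.05 ± 0.13 (adjusted p = 0.89). Isg15 was at -0.17 ± 0.19 and Usp18, the protease that removes Isg15 from proteins and damps the type I receptor, at -0.08 ± 0.15. Rtp4, Ifi27l2a, Ifi44 and Xaf1 lay between -0.13 and -0.0021. Without Vehicle 2, Isg15, Irf7, Ifi44, Ifi27l2a and Xaf1 were positive, at 0.01 to 0.10, while Ddx58 was at -0.01, Usp18 at -0.01 and Ifih1 at 0.12.

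**Figure D3:**
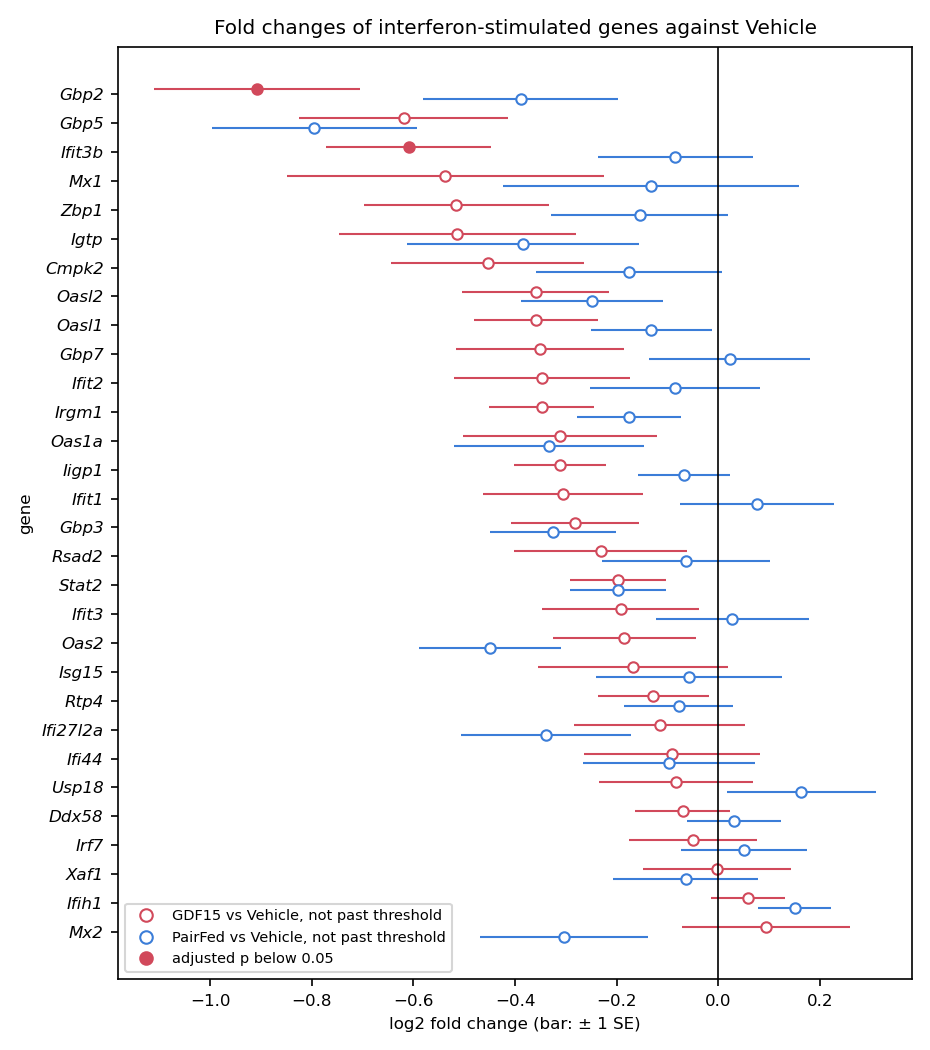
Log2 fold change of each member against Vehicle (x axis, bars ± 1 SE), for GDF15 and PairFed, which share the Vehicle libraries. Filled points mark an adjusted p below 0.05, which Gbp2 and Ifit3b reach in GDF15, and 28 of the 30 GDF15 points lie below 0.

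PairFed against Vehicle asks what less food does without the hormone. With edgeR's test 0 members passed, where 0.285% of all genes did (0.139% lower and 0.147% higher). DESeq2 called 1 member, Gbp5 (adjusted p = 0.0349), or 3.33%, near the 2.76% it called of all genes, and limma-voom 0. At an unadjusted p below 0.05, 3 members (10%) were lower and 0 higher, against 8.25% and 8.66% of all genes. They were Gbp5, Gbp3 at -0.32 ± 0.12 (adjusted p = 0.19) and Oas2 at -0.45 ± 0.14 (adjusted p = 0.136). Gbp5 was the 1 member (3.33%) wholly below Vehicle, against 1.71% of all genes. Of the members 23 were negative, with a median of -0.11, against 50.1% of all genes. Without Vehicle 2, 16 were negative, with a median of -0.02, and Gbp3 was at -0.22.

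Oas2, which makes 2′-5′ oligoadenylate, stood at 11.2, 10.7, 10.8, 9.89 and 6.85 CPM in Vehicle and at 6.33, 6.67, 8.27, 6.98 and 7.85 CPM in PairFed. Vehicle 5 was the 1 Vehicle library within the PairFed range. Without it the log2 fold change was -0.55 (adjusted p = 0.0498), in a fit where 0.762% of all genes passed. That was the 1 of 15 fits leaving out 1 library in which Oas2 passed. Over these fits it ran from -0.55 to -0.40, with adjusted p up to 0.288.

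GDF15 against PairFed asks what the hormone does beyond the smaller intake. With edgeR's test 0 members passed, where 0.782% of all genes did (0.22% lower and 0.562% higher), and DESeq2 and limma-voom also called 0. At an unadjusted p below 0.05, 5 members (16.7%) were lower and 1 higher, against 6.31% and 7.01% of all genes. The lower ones were Ifit3b at -0.52 ± 0.16 (adjusted p = 0.154), Gbp2 at -0.52 ± 0.20 (adjusted p = 0.276), Gbp7 at -0.37 ± 0.16 (adjusted p = 0.333), Iigp1 at -0.24 ± 0.09 (adjusted p = 0.24) and Ifit1. Ifit1, which binds RNA that lacks a host cap, stood at 8.43 to 11.9 CPM in GDF15 and 10.9 to 16.3 CPM in PairFed. The higher one was Mx2, at 0.40 ± 0.17 (adjusted p = 0.305), with 5.04 to 5.88 CPM in GDF15 and 3.27 to 5.62 CPM in PairFed. Gbp2 and Ifit3b were the 2 members (6.67%) wholly below PairFed, against 1.55% of all genes. Of the members 21 were negative, with a median of -0.12, against 49.8% of all genes.

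By group means, GDF15 was lowest in 21 members, PairFed in 8 and Vehicle in 1, which was Ifih1. The order Vehicle, PairFed, GDF15 from high to low held in 15 members. In 27 of the 30, both pairs of groups next to each other in that gene's order of means overlapped. Averaged over the 7 GTPases, the level relative to the Vehicle mean was -0.44 ± 0.06 log2 units in GDF15 and -0.27 ± 0.10 in PairFed (SD, n = 5 each), and the SD in Vehicle was 0.29. Against the mean of the 4 Vehicle libraries other than Vehicle 2, these means were -0.33 and -0.16. GDF15 libraries ran from -0.48 to -0.34, PairFed libraries from -0.41 to -0.18, and Vehicle libraries from -0.30 to 0.44. Over the 23 other members GDF15 ran from -0.34 to -0.02 and Vehicle from -0.13 to 0.37, so these overlapped.

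**Figure D4:**
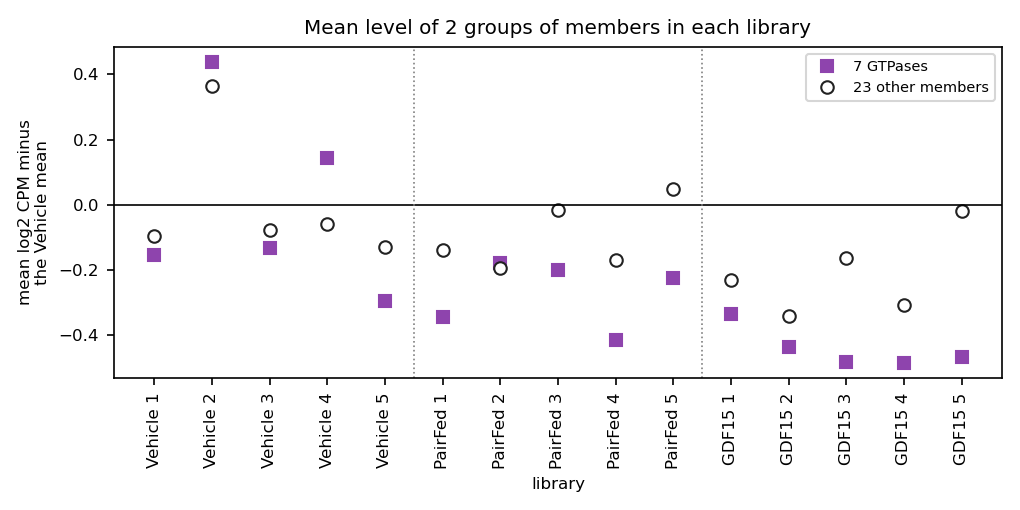
Mean log2 CPM minus the Vehicle mean in each of the 15 libraries (x axis), for the 7 GTPases (squares) and the 23 other members (circles). The GDF15 squares lie between -0.48 and -0.34, below each Vehicle square, and Vehicle 2 holds the highest square and circle.

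The rest of the interferon pathway was read from 109 further listed genes, 94 of them tested. Among these, 7 (7.45%) fell and 0 rose in GDF15 against Vehicle, where 0.88% of all genes fell. Of their log2 fold changes, 78 (83%) were negative, against 51.1% of all genes, and the median was -0.22. An unadjusted p below 0.05 was reached by 31 lower genes (33%) and 4 higher ones, against 7.54% and 9.12% of all genes. For PairFed against Vehicle, edgeR's test called 0, where 0.285% of all genes passed. DESeq2 called 2 lower and 1 higher (3.19% in all, near the 2.76% of all genes), and limma-voom 0. By edgeR's unadjusted p below 0.05, 17 (18.1%) were lower and 2 higher, against 8.25% and 8.66% of all genes. Negative log2 fold changes made up 73.4%, against 50.1% of all genes, and the median was -0.13. For GDF15 against PairFed, 3 (3.19%) fell, against 0.22% of all genes, and 0 rose. By unadjusted p below 0.05, 11 (11.7%) were lower and 2 higher, against 6.31% and 7.01% of all genes. Negative log2 fold changes made up 67%, against 49.8% of all genes, and the median was -0.09. Of the ligands, Ifng had 7 counts in all and was at 0 in 10 libraries. The listed type I and type III ligands were looked up by symbol and were not among the 15302 genes, each of which has a total of at least 5. The receptor subunits were expressed. Ifnar1 averaged 36.5 CPM in Vehicle and 33.3 CPM in GDF15 (adjusted p = 0.443), and Ifnar2 63.2 and 61.3 CPM (adjusted p = 0.805). Ifngr1 averaged 26.4 and 22.9 CPM (adjusted p = 0.334), and Ifngr2 32.1 and 27.4 CPM (adjusted p = 0.355).

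Of 11 signalling and transcription factor genes, 1 fell in GDF15 against Vehicle: Irf5, a factor of inflammatory macrophages, at -0.47 ± 0.12 (adjusted p = 0.0458). Irf1, an early target of type II interferon, was at -0.50 ± 0.19 (adjusted p = 0.184), and Irf9 at -0.10 ± 0.08 (adjusted p = 0.57).

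The other 6 genes that fell were among 58 tested further interferon-induced genes, 52 of which were negative. Cxcl10, a chemokine for T cells, was at -1.15 ± 0.18 (adjusted p = 0.00222), and Ciita, the master regulator of MHC class II genes, at -1.05 ± 0.20 (adjusted p = 0.00711). Ifi47, an immunity-related GTPase, stood at 16.4 to 25.7 CPM in Vehicle and 11.4 to 14.4 CPM in GDF15, at -0.65 ± 0.13 (adjusted p = 0.0107). Tap1, which carries peptides to MHC class I, was at -0.41 ± 0.09 (adjusted p = 0.018), Gbp4 at -0.94 ± 0.23 (adjusted p = 0.0332) and Tgtp1, which has a near copy in Tgtp2, at -1.56 ± 0.38 (adjusted p = 0.0438). Cxcl10, Ciita and Ifi47 passed in all 15 fits that left out 1 library, Tap1 in 14, Gbp4 in 8, Irf5 in 4 and Tgtp1 in 3. Without Vehicle 2, Gbp4, Irf5 and Tgtp1 had adjusted p = 0.0771, 0.0736 and 0.0808. That fit called 5 of the 94, all lower and Il10rb among them, where it called 2.48% of all genes. With the mean level of immediate-early genes as a covariate none of the 7 genes passed, and neither did any other of the 94. With that covariate 0.0652% of all genes passed.

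Against PairFed, Tap1 was at -0.39 ± 0.09 (adjusted p = 0.0479), Trim25, which helps activate the sensor Ddx58, at -0.37 ± 0.08 (adjusted p = 0.0468), and Parp12, an antiviral ADP-ribosyltransferase, at -0.26 ± 0.06 (adjusted p = 0.0479). With a term for the deeper libraries, 4 of which were PairFed, the adjusted p was 0.682, 0.531 and 0.32, and none of the 3 passed. With that term 0.0733% of all genes passed in this comparison, against 0.782% without it. Of the 15 fits that left out 1 library, Trim25 passed in 4, Tap1 in 3 and Parp12 in 2.

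Beside these genes, log2 fold changes of markers of several immune cell types and of stellate cells were mostly negative in GDF15 against Vehicle. Those of Kupffer cell and hepatocyte markers were mostly positive. In bulk liver, fewer cells of a type and less RNA per cell cannot be told apart. Of 10 T and NK cell markers 4 could be tested in GDF15 against Vehicle, all 4 were negative, and Cd3g and Cd8a fell. Cd3g and Cd8a had 141 and 159 counts in all. These 2 and the other tested markers, Cd4 and Nkg7, passed the filter on low counts mainly through Vehicle libraries. Neither the fall of Cd3g and Cd8a nor the sign of all 4 is therefore independent of the filter. Among the untested markers Klrd1 had a higher mean in GDF15, at 0.72 against 0.66 CPM, and the rest a lower one. Summed over the 10, the markers stood at 4.71 to 12.5 CPM in Vehicle, 2.94 to 6.19 CPM in GDF15 and 3.61 to 7.79 CPM in PairFed. The low Vehicle value was Vehicle 5, and the other 4 lay at 11.1 to 12.5 CPM. Of 8 markers of recruited monocytes and macrophages 7 were tested, all negative, and Ly6c2, with 166 counts in all, fell. Ly6c2 also passed the filter mainly through Vehicle libraries, so its fall is not independent of the filter either. The 8 summed to 154 to 253 CPM in Vehicle, 121 to 227 CPM in GDF15 and 130.2 to 194 CPM in PairFed. The median log2 fold change of the 7 was -0.41 in GDF15 and -0.62 in PairFed, where again all 7 were negative and none passed. The 4 tested markers of dendritic cells were all negative in GDF15, with sums of 20.9 to 28.9 CPM in Vehicle, 13.4 to 21.6 CPM in GDF15 and 14.5 to 23.2 CPM in PairFed. Of 6 markers of lipid-associated macrophages 5 were negative in GDF15, with sums of 316 to 714, 249.9 to 424 and 323 to 467 CPM in the same order. The 6 markers of Kupffer cells, the resident macrophages of the liver, were positive in 5, with sums of 177 to 277, 141 to 313 and 168 to 274 CPM. Of 6 hepatocyte markers 5 were positive in GDF15, with mean sums of 92864 CPM in Vehicle, 108752 CPM in GDF15 and 101177 CPM in PairFed. No marker of these last 4 lists passed. All 7 stellate cell markers were negative in GDF15 and in PairFed, with medians of -0.33 and -0.20. In GDF15 the 3 tested B cell markers and the 2 tested neutrophil markers were negative, as were 2 of 6 endothelial cell markers. None of the stellate, B cell, neutrophil or endothelial markers passed. Of 6 markers of plasmacytoid dendritic cells, a main source of type I interferon, 2 had enough counts to test. The mean log2 CPM of 13 immediate-early genes, which respond fast to handling and other stimuli, was 3.91 to 4.95 in Vehicle, 4.33 to 6.09 in GDF15 and 4.67 to 5.45 in PairFed. With that mean as a covariate, 8 of all genes and no member passed in GDF15 against Vehicle, and Gbp2 was at -1.10 (adjusted p = 0.248). The part of the cell markers in the results was not tested.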

How the data were processed

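Liver RNA was made into strand-keeping libraries, per the labels' protocols. Per the submitters' processing notes, the tools Salmon and DESeq2 and the build mm10 are named, with no version or role. The deposited table gives estimated counts, as whole numbers and not scaled to depth, for 15302 gene symbols, each with a total of at least 5. That they are rounded Salmon output is inferred from those notes, with annotation and strand setting not given in the sources used here.

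Columns were placed in groups by name. With edgeR 4.0.16 in R 4.3.3, filterByExpr (count 10, total 15) kept 12274 genes with 99.9% of the counts. TMM scaling and 1 robust quasi-likelihood model of the 15 libraries gave the 3 contrasts, with Benjamini-Hochberg adjustment over all tested genes and a threshold of 0.05. "Rose" and "fell" refer to this threshold, and adjusted p-values are edgeR's where no other tool is named. SEs were derived from the F statistic. Averages over genes use log2 CPM with a prior count of 2. The common biological coefficient of variation was 13.3%. The fit was tested on simulated data.

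Members, roles and lists were chosen with earlier results of these data known. Named were all 30 members, listed pathway genes past the threshold in any contrast, and Irf9, Irf1, the receptor subunits and Ifng. A further gene of the rule is not reported here. Values in every library are given for members that passed or whose groups did not overlap and for members of each role; the marker genes Alb and Clec4f were added after values were seen. Alternatives were DESeq2 size factors, upper-quartile factors, no filter, DESeq2 1.42.0, limma-voom (limma 3.58.1), only the groups compared, a term for deeper libraries, only shallower libraries, an immediate-early covariate, summed copies, and leaving out each library. Positions and promoters are RefSeq's (GRCm38.p6) and transcripts GENCODE's (M21).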

Additional observations from a re-analysis of the deposited data

Results flagged for a closer look

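In 90 sets of 5 libraries (30 members in 3 groups), 3 sets had 1 library far from the other 4 by Dixon's test at its 95% critical value. Chance gives about 1 such set in 20. Igtp in GDF15 1 was at 41.1 CPM, and in the other GDF15 libraries at 25.3 to 27.8 CPM. Irgm1 in Vehicle 2 was at 85.6 CPM, and in the other Vehicle libraries at 55.0 to 61.9 CPM. Ifih1 in Vehicle 2 was at 45.5 CPM, and in the other Vehicle libraries at 35.7 to 38.6 CPM.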

How the results depend on the processing

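For GDF15 against Vehicle, 2 members passed, and each member called under an alternative was lower. With upper-quartile factors and with DESeq2 the count was 4 (Gbp2, Ifit3b, Irgm1 and Iigp1), where 2.72% and 5.23% of all genes passed. It was 1, Gbp2, with DESeq2 size factors, no filter, limma-voom, only the 2 groups compared, the term for deeper libraries and summed copies, and 0 among the shallower libraries and with the immediate-early covariate, where 1.33% and 0.0652% of all genes passed. The share of all genes was 1.62% to 2.97% under the 6 settings that gave 1. Leaving out 1 library gave 0 to 2, with 0 without Vehicle 4, GDF15 1 or GDF15 2. In PairFed against Vehicle DESeq2 gave 1 (Gbp5), where 2.76% of all genes passed. Leaving out 1 library gave 0 to 1 there (Oas2, without Vehicle 5, where 0.762% of all genes passed). In GDF15 against PairFed it was 0 under each alternative run; the shallower libraries could not be used there, since PairFed has 1.

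The members' median stayed negative under each alternative. With 1 library left out it ran from -0.33 to -0.18 in GDF15 against Vehicle, from -0.17 to -0.02 in PairFed against Vehicle and from -0.16 to -0.10 in GDF15 against PairFed. Signs turned for these genes in GDF15 against Vehicle: among shallower libraries Usp18 (0.007153) and Xaf1 (0.008081), and with the immediate-early covariate Oas2 (0.001794), Ifi27l2a (0.006492) and Ifih1 (-0.03311). With 1 library left out, Isg15 ran from -0.2807 to 0.08516, Irf7 from -0.1179 to 0.09525, Ifi44 from -0.1763 to 0.08311, Ifi27l2a from -0.2437 to 0.01301, Usp18 from -0.2136 to 0.01044 and Xaf1 from -0.09890 to 0.1039, and Iigp1 in PairFed against Vehicle from -0.1364 to 0.01474. The cause was not tested. Depth limits the rarest members, Mx1 with 8 to 41 counts per library and Gbp5 with 12 to 53. No paired analysis was possible because the columns carry no number that links animals of different groups.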
